A study of Mus musculus with 8 samples.

Results

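The complement system was described here by 32 genes, taken from a given list of symbols and found on the arrays by gene name or transcript accession. All 32 were on the arrays, through 70 of 149782 non-control probes, and they are 32 of 21232 gene symbols with a probe. A total of 31 could be tested, among 13906 genes. They are 6 genes of the classical pathway, 5 of the lectin pathway, 4 of the alternative pathway, 7 of the terminal pathway, 8 regulators and 2 receptors. RNA came from whole livers of male mice, 4 labelled oxaliplatin and 4 labelled control, with 1 Agilent one-colour (Cy3) array per mouse. Oxaliplatin, a platinum drug used against colorectal cancer, was given by weekly injections into the abdomen over 6 weeks to model hepatic sinusoidal obstruction syndrome, in which the liver's smallest vessels are damaged and blocked. Control mice are described as normal, and the strain, age, dose and any vehicle injection are not given in the sources used here.

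Complement is a set of blood proteins that tag and lyse cells. The classical pathway starts when C1q binds antibody and the C1r and C1s proteases cut C4 and C2. In the lectin pathway, mannose-binding lectins and ficolins work with the MASP proteases. The alternative pathway runs through C3, factor B, factor D and properdin, and all routes meet at the cutting of C3. C5 (gene Hc in mice) then seeds the membrane attack complex of C6, C7, the C8 chains and C9, which forms a pore in the membrane. Hepatocytes make most of the circulating components, while C1q and properdin come mainly from macrophages and other myeloid cells.

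Levels below are log2 signals relative to each array's 75th percentile, and differences are oxaliplatin minus control on that scale. Errors are SD for group means and SE for differences, with n = 4 arrays per group, and a gene is called changed when its adjusted p in limma is under 0.05. Levels of different probes are not read as relative amounts of message. Sums, means and ratios over probes are compared between arrays only. Between 27.2% and 40.9% of probes were well above background on a given array. Each slide held the arrays of 1 group, so slide and treatment cannot be told apart, and oxaliplatin arrays 1 and 2 carry another run name than the other 6. The tissue label matched its markers: 19 of 20 hepatocyte markers passed the filter, and Alb and Ttr were well above background on every array. Between the groups, 8 of the 19 were called higher and 0 lower. The summed hepatocyte level was 14.8 to 14.9 on the oxaliplatin arrays and 14.5 to 14.6 on the control arrays. Among 21 tested targets of p53, genes that DNA damage is known to raise, 0 were called higher and 14 lower, with Cdkn1a at -3.61 ± 0.66 (adjusted p = 0.0117). Every direction below follows the labels, and whether labels were exchanged was not tested. In whole liver, fewer cells of a type and less RNA per cell cannot be told apart.

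The complement genes that were called were all higher on the oxaliplatin arrays, and most of them belong to the terminal pathway. In the 31 tested genes, 9 were called higher and 0 lower, while across all genes 6.99% were called higher and 11.6% lower. Their median difference was 0.28, against -0.09 for all genes, with 24 differences above 0 and 7 below. A rise without calls on the lower side was not particular to complement. Of the 19 tested hepatocyte markers, 8 were called higher and 0 lower, with a median of 0.16, 15 differences above 0 and 4 below. The groups did not overlap for 11 of the 31, against 27.7% of all genes. Oxaliplatin was the higher group in all 11, against 9.25% of all genes, and the lower group in 0, against 18.4%. Of the 22 genes not called, 5 had an unadjusted p under 0.05: Masp2 and Cfhr2 on the higher side, and C7, C4bp and Masp1 on the lower side. The spread was larger among control arrays for 24 of the 31, and for 8998 of all 13906 genes. At probe level, 15 of the 66 tested probes were called higher, against 7.42% of all tested probes, and 0 lower. Leaving out 1 array left 4 members called higher (without oxaliplatin array 1, 2 or 4 or control array 3), 5 (without oxaliplatin array 3), 6 (without control array 2 or 4) or 7 (without control array 1), and C6, C9, C8b and C1ra were called each time. Without the 2 arrays of the other run name, 3 members were called higher, namely C6, C8b and C1ra. Centring each array on the median of all its probes shifted the median of all genes by a further -0.63. Under it only C6 and C9 were called higher and 12 of the 31 members lower, against 1.65% and 69.6% of all genes. The same number of members, 25, lay above the median of all genes as in the reported values.

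**Figure D1:**
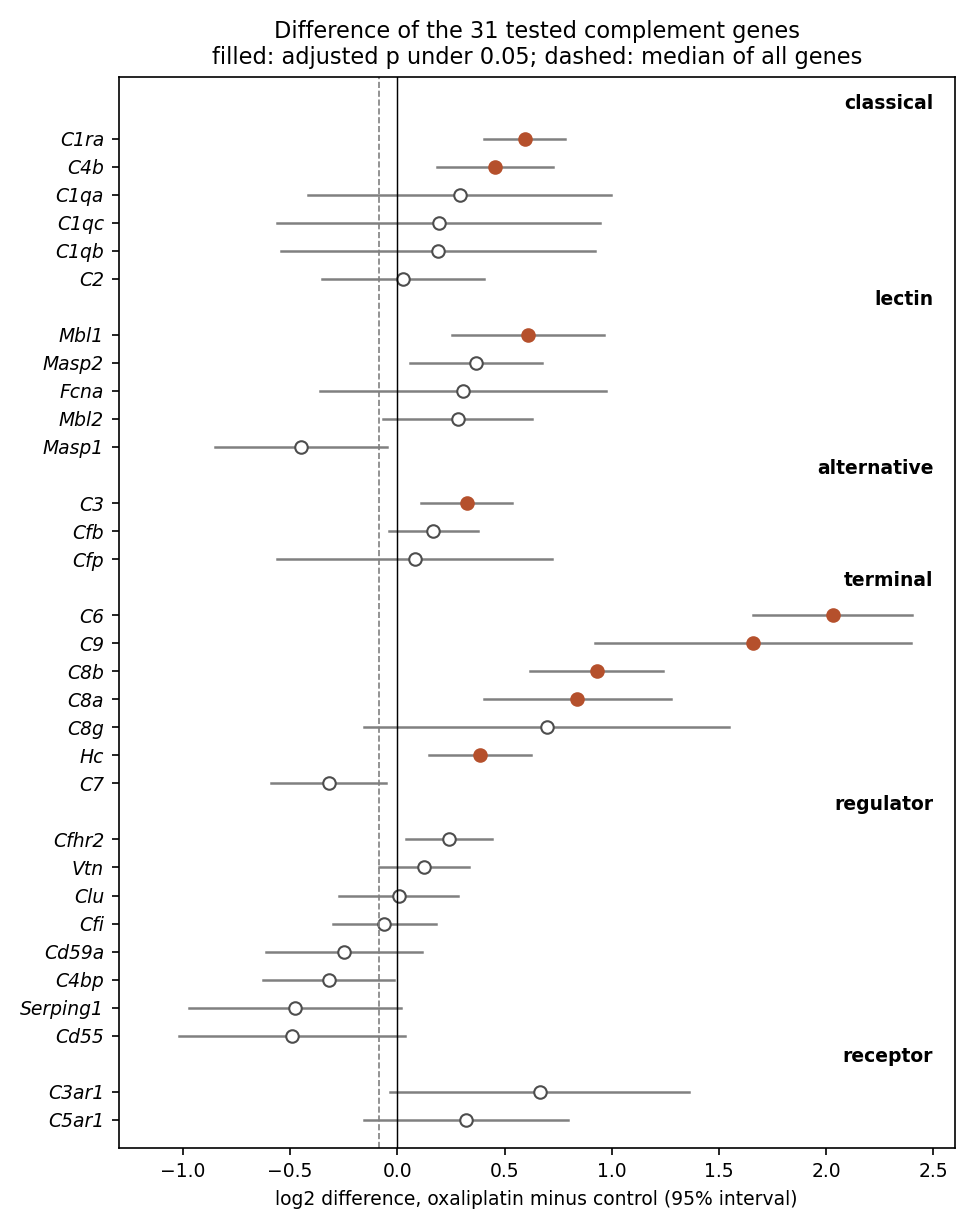
Log2 difference (oxaliplatin minus control, horizontal axis) of the 31 tested genes, grouped by role, with 95% confidence intervals from limma; filled points have an adjusted p under 0.05 and the dashed line is the median of all genes, -0.09. The 5 called terminal genes lie between 0.38 (Hc) and 2.03 (C6), while no regulator or receptor is filled; centring on the median of all probes turns the filled points of C1ra, C4b, Mbl1, C3 and Hc negative.

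The terminal pathway held 5 of the 9 called genes. C6, C9, C8b, C8a and Hc were called higher of 7 terminal genes tested, and C8g and C7 were not called. The median difference of the 7 was 0.84.

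C6, the component that joins C5b and recruits C7, differed most among the members. Its level was 8.0, 8.13, 8.14 and 8.55 on the oxaliplatin arrays, against 6.00, 6.39, 6.36 and 5.94 on the control arrays. The lowest oxaliplatin array lay above every control array by far more than the spread within either group. The difference was 2.03 ± 0.16, or 4.09-fold (adjusted p = 0.00113). A second probe gave 2.06 ± 0.18, so both parts of the transcript that were measured showed a similar difference. The second probe lies on the forward strand at chr15:4748363-4748422 (mm9). The first has no position in the files and holds a poly(A) signal, shown in capitals, of which 30 bases are given. Both C6 sequences are shown because the difference is carried by separate stretches of the same message.
C6 probe at chr15:4748363-4748422: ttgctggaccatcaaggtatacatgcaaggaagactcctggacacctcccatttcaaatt
C6 probe with poly(A) signal: gcacctcagcttAATAAAtgagaccttgat

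C9, the subunit that polymerises into the pore, was the next largest. Its level was 6.32, 6.28, 6.16 and 6.44 on the oxaliplatin arrays, against 4.92, 4.92, 5.16 and 3.56 on the control arrays. The oxaliplatin arrays were close together and control array 4 stood well below the other 3. The difference was 1.66 ± 0.32, or 3.16-fold (adjusted p = 0.0141), and 1.30 with control array 4 left out, still called. Without the 2 arrays of the other run name it was 1.66 with adjusted p = 0.0952. The second C9 probe, on the forward strand at chr15:6433127-6433186 (mm9), gave 1.71 ± 0.34. Neither C9 probe carries a poly(A) signal, and both are shown because they measured the same difference at separate sites.
C9 probe of the reported value: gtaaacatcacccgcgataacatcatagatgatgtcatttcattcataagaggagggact
C9 probe at chr15:6433127-6433186: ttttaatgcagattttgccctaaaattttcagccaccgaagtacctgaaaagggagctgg

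The genes of the 2 C8 chains that insert into the membrane were both called higher. C8b was at 8.12, 8.38, 8.41 and 8.55 on the oxaliplatin arrays, against 7.36, 7.53, 7.66 and 7.21 on the control arrays, a difference of 0.93 ± 0.14 or 1.90-fold (adjusted p = 0.00607). C8a was at 9.0, 8.89, 8.76 and 8.92 on the oxaliplatin arrays, against 8.13, 8.43, 8.16 and 7.48 on the control arrays, a difference of 0.84 ± 0.19 or 1.79-fold (adjusted p = 0.0227). The groups did not overlap for either gene, and control array 4 was the lowest for both. Second probes gave 1.04 ± 0.11 for C8b and 1.02 ± 0.24 for C8a. Leaving out any 1 oxaliplatin array, or control array 3, ended the call of C8a (adjusted p between 0.0524 and 0.058). Their reported probes hold the poly(A) signal in capitals, a sequence usually found near the end of a message.
C8b probe with poly(A) signal: gtcttcttcagtAATAAAgacagccaatct
C8a probe with poly(A) signal: gaggtttacctaAATAAActtggctcttct

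C8g, the lipocalin-like chain of C8, was not called. It was at 9.07, 9.37, 9.44 and 9.51 on the oxaliplatin arrays, against 9.05, 9.33, 8.79 and 7.44 on the control arrays. The groups overlapped, and control array 4 was far below the rest. The difference was 0.70 ± 0.37 (adjusted p = 0.213), with a 95% interval from -0.16 to 1.55, and 0.29 without that array.

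Hc, which encodes C5, was at 9.83, 9.80, 9.73 and 9.88 on the oxaliplatin arrays, against 9.52, 9.35, 9.59 and 9.24 on the control arrays. The groups did not overlap, and the gap was small beside that of C6 or C9. The difference was 0.38 ± 0.10, or 1.31-fold (adjusted p = 0.0378), and 0.77 ± 0.15 on a second probe. The call ended when any 1 array other than control array 1 was left out (adjusted p between 0.0502 and 0.093).

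C7, which anchors the complex to the membrane, was measured by 1 probe. It was at 2.14, 2.12, 2.55 and 2.26 on the oxaliplatin arrays, against 2.54, 2.69, 2.51 and 2.62 on the control arrays. Only oxaliplatin array 3 reached the control range. The difference was -0.32 ± 0.12 (adjusted p = 0.0891), the only one below 0 among the terminal genes.

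**Figure D2:**
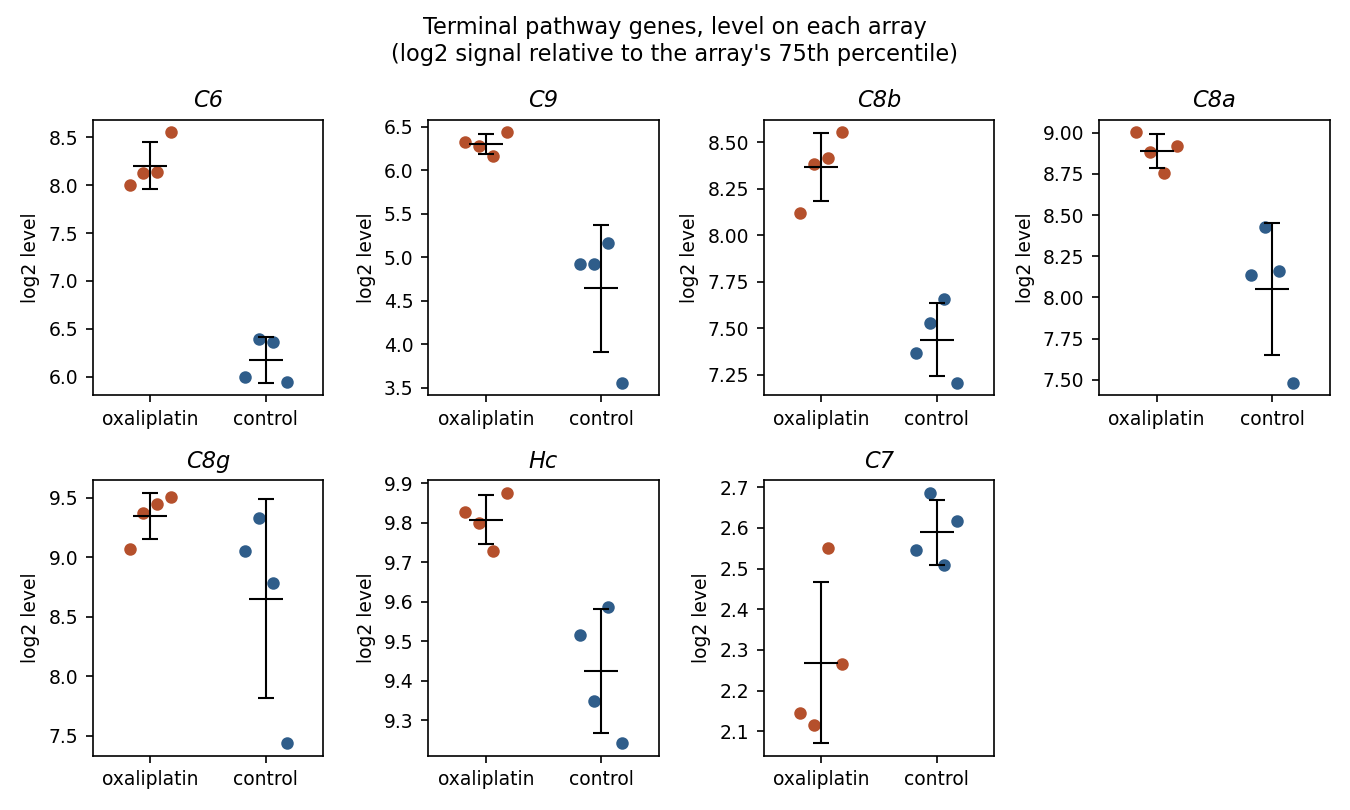
Log2 level on each array (vertical axis, relative to the array's 75th percentile) of the 7 terminal genes, with oxaliplatin on the left and control on the right of each panel; bars are the mean and SD of 4 arrays, and vertical scales differ between panels. The groups are apart for C6, C9, C8b, C8a and Hc, and control array 4 is the lowest for each of these and for C8g.

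The stretch before the start site was read for the 5 called terminal genes from the RefSeq promoter table (GRCm38.p6), 250 bases each, on the strand of the gene. They are shown because these genes were all called higher, and capitals mark matches to 3 motifs searched on both strands: TTCNNNGAA (STAT), GTTAAT (a part of the HNF1 site) and CAAAGTCCA (HNF4). C6 (chr15:4726960-4727209) and C9 (chr15:6445096-6445345) lie on the forward strand and had no match. C8a lies on the reverse strand (chr4:104876399-104876648) and had a STAT match and a GTTAAT match. C8b lies on the forward strand (chr4:104766067-104766316) and Hc on the reverse strand (chr2:35061413-35061662), each with a GTTAAT match. No printed match overlapped another.
C6 promoter: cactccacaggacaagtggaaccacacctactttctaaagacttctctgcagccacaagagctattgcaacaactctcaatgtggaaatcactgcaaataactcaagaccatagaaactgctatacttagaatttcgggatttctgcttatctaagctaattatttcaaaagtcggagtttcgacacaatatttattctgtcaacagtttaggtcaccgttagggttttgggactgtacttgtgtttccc
C8a promoter: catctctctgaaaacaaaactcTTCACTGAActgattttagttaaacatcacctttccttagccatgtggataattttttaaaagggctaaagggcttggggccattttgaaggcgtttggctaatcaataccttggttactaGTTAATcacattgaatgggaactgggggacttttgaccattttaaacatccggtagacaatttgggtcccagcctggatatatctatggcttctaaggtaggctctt
C8b promoter: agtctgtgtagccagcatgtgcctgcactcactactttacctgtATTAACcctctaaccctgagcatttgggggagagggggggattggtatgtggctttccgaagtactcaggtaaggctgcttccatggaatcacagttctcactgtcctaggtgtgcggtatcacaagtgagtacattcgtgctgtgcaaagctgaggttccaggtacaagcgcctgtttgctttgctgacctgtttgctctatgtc
C9 promoter: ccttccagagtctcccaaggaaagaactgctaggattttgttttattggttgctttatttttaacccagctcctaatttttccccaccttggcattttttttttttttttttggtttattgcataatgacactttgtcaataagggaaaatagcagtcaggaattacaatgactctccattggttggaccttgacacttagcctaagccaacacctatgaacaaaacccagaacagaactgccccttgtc
Hc promoter: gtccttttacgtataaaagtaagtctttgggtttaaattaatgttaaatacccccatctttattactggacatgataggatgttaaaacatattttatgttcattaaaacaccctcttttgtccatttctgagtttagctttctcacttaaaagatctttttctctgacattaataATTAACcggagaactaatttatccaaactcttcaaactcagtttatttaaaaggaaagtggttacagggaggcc

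Of 24 members with a promoter in the table, 9 held GTTAAT, against 6.43% of 32851 promoters of the same length. They were C1ra, C4bp, C7, C8a, C8b, Cfhr2, Cfp, Hc and Vtn, a group that includes called and uncalled members and differences on both sides of 0. The STAT motif was in 3 of the 24 (C7, C8a and Masp2), against 7.02% of all promoters, and the HNF4 motif in 0, against 0.384%. Members were counted by gene, with a match in any promoter of the gene. The background was counted by promoter, so these shares are in unlike units. A match describes letters in this window and says nothing of binding.

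In the classical pathway, 2 of 6 genes were called higher. C1ra, the protease of the C1 complex that cuts C1s, was at 7.60, 7.61, 7.60 and 7.60 on the oxaliplatin arrays, against 7.0, 7.05, 6.90 and 7.09 on the control arrays. The oxaliplatin arrays were nearly identical and all above the control arrays. The difference was 0.59 ± 0.08, or 1.51-fold (adjusted p = 0.00532), but a second C1ra probe, which holds a poly(A) signal, gave 0.16 ± 0.18 with overlapping groups. The neighbouring paralog C1rb differed by -0.02 ± 0.15, and cross-hybridisation between the pair was not tested. C1s1, the partner protease, differed by -0.03 ± 0.11 and was not called.

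C4b, the component that C1s cuts, was called higher on its brightest probe. It was at 10.05, 9.93, 9.63 and 9.80 on the oxaliplatin arrays, against 9.45, 9.33, 9.53 and 9.28 on the control arrays, a difference of 0.45 ± 0.12 or 1.37-fold (adjusted p = 0.0337). The groups were apart by a small margin, since oxaliplatin array 3 was close to control array 3. The call ended when any 1 array other than oxaliplatin array 3 was left out (adjusted p between 0.0523 and 0.0853). The second probe, on the reverse strand at chr17:34866361-34866420 (mm9), went the other way, with a difference of -0.40 ± 0.25 and overlapping groups. The files list that probe for C4a too, a near copy whose own probe differed by -0.49 ± 0.21 (adjusted p = 0.138). Both C4b sequences are shown because their differences have opposite signs.
C4b probe with poly(A) signal: ctctacagggtaAATAAAagaaaagctttt
C4b probe at chr17:34866361-34866420: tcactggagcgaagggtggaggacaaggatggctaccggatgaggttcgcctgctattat

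C1qa, C1qb and C1qc, which encode the 3 chains of C1q, were not called. C1qa was at 8.91, 9.01, 8.21 and 8.23 on the oxaliplatin arrays, against 7.98, 7.68, 8.66 and 8.88 on the control arrays. Each group was split, with oxaliplatin arrays 1 and 2 and control arrays 3 and 4 high. The differences were 0.29 ± 0.31 for C1qa, 0.19 ± 0.32 for C1qb and 0.19 ± 0.33 for C1qc, and the interval for C1qa ran from -0.42 to 1.0. Oxaliplatin arrays 1 and 2 are those of the other run name, and without them the differences were -0.081, -0.25 and -0.24, again not called. The mean of the 3 genes was 7.63, 7.74, 6.83 and 6.87 on the oxaliplatin arrays, against 6.72, 6.44, 7.40 and 7.60 on the control arrays. Properdin (Cfp) and C2, the partner of C4 in the C3-cutting enzyme, were high on control arrays 3 and 4 too, with differences of 0.08 ± 0.28 and 0.03 ± 0.16, and of -0.29 and -0.072 without oxaliplatin arrays 1 and 2.

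The summed level of 22 tested Kupffer cell and macrophage markers showed the same split. It was 10.9, 11.1, 10.3 and 10.3 on the oxaliplatin arrays, against 10.5, 10.3, 11.0 and 11.2 on the control arrays (exact permutation test, two-sided p = 0.6). Within that list 4 markers were called higher (Csf1r, Folr2, Cx3cr1 and Lyz2) and 1 lower (Marco), and the defining markers Clec4f, Cd68 and Adgre1 were not called. Clec4f differed by 0.59 ± 0.19 (adjusted p = 0.0623) with groups apart, Adgre1 by 0.36 ± 0.30 and Cd68 by 0.08 ± 0.26. The median of the 22 was 0.34, with 16 differences above 0 and 6 below. Groups were apart for 6 on the higher side and 1 on the lower, against 9.25% and 18.4% of all genes. The sum adds linear signals, so bright genes weigh most in it. Csf1r, the receptor for macrophage colony-stimulating factor, differed by 1.47 ± 0.23 (adjusted p = 0.0074), and Marco, a scavenger receptor, by -2.26 ± 0.63 (adjusted p = 0.0407). The part of macrophage content in the C1q values was not tested.

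**Figure D3:**
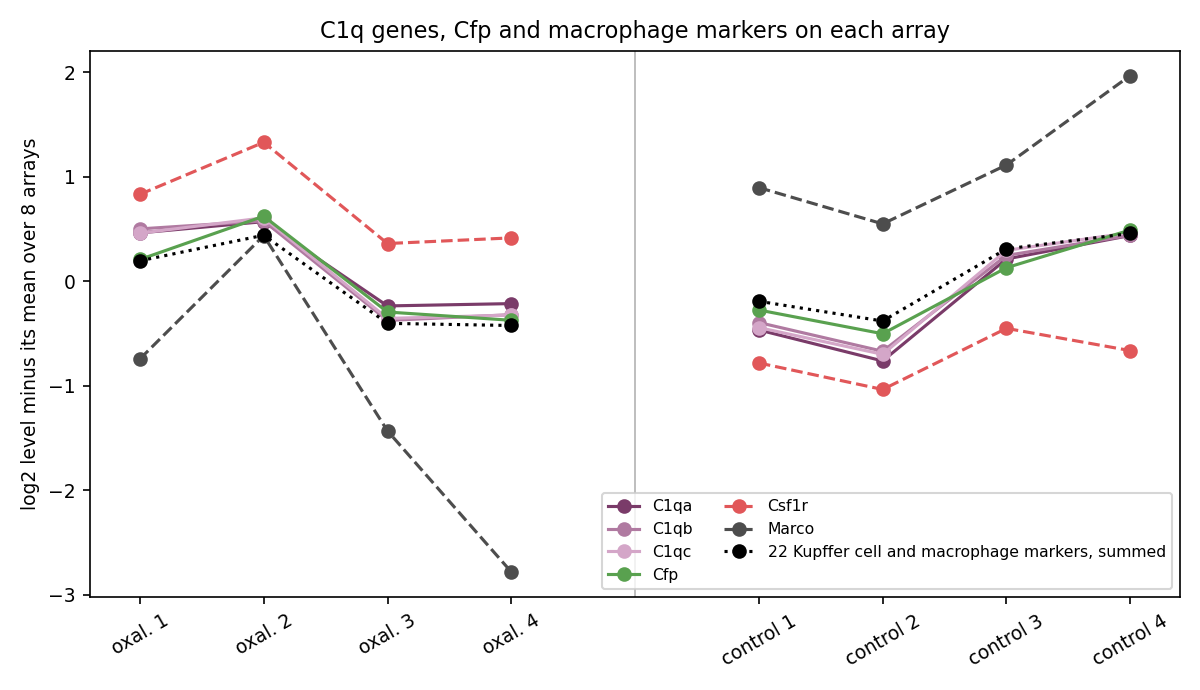
Log2 level minus its mean over the 8 arrays (vertical axis) on each oxaliplatin and control array, for C1qa, C1qb, C1qc, Cfp, Csf1r, Marco and the summed level of 22 Kupffer cell and macrophage markers. The C1q genes and the summed markers are high on oxaliplatin arrays 1 and 2 and on control arrays 3 and 4, while Csf1r is higher on all oxaliplatin arrays and Marco lower.

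In the lectin pathway, 1 of 5 genes was called higher. Mbl1, encoding mannose-binding lectin A, was at 9.14, 9.13, 9.04 and 8.98 on the oxaliplatin arrays, against 8.56, 8.73, 8.54 and 8.02 on the control arrays. The groups did not overlap and control array 4 was the lowest. The difference was 0.61 ± 0.15, or 1.52-fold (adjusted p = 0.0318), and 0.46 ± 0.18 on a second probe. Without any 1 oxaliplatin array, or without control array 3, the adjusted p of Mbl1 was between 0.0639 and 0.077. Mbl2, encoding mannose-binding lectin C, differed by 0.28 ± 0.15 (adjusted p = 0.216), and control array 4 was again low at 9.09, with the other 3 between 9.63 and 9.70. Fcna, encoding ficolin A, differed by 0.31 ± 0.29, and by 0.69 ± 0.29 on a second probe, with overlapping groups on both. Masp1, the first MASP protease, differed by -0.45 ± 0.18 (adjusted p = 0.106).

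Masp2, the protease that cuts C4 in the lectin pathway, had probes for 2 transcripts whose differences had opposite signs. The gene is also known to give a shorter product without the protease domain. Its brightest probe was at 7.68, 7.79, 7.90 and 7.86 on the oxaliplatin arrays, against 7.29, 7.67, 7.62 and 7.17 on the control arrays, a difference of 0.37 ± 0.13 (adjusted p = 0.0894). The groups were apart by a narrow margin, and the gene was not called. The probes that the files assign to transcript variant 2 gave 0.37 and 0.35, and those assigned to variant 1 gave -0.10 and -0.25. The reported Masp2 value is thus from a variant 2 probe, and which variant encodes the shorter product was not tested. The log2 ratio of the variant 2 to the variant 1 probes was 2.17, 2.14, 2.38 and 2.23 on the oxaliplatin arrays, against 1.75, 1.91, 1.76 and 1.37 on the control arrays. The ratio was higher on every oxaliplatin array, by 0.53. This contrast was chosen after the opposite signs were seen and is given without a test, and whether each probe binds only 1 transcript was not tested. The variant 2 probes lie at chr4:147978429-147978488 and chr4:147977799-147977858 and 1 variant 1 probe at chr4:147989121-147989180 (mm9, forward strand), further along the gene. The first 30 bases of each probe are given because the sites differ.
Masp2 variant 2 probe, chr4:147978429-147978488: tacatgcccacacgatgctgctctgtcagg
Masp2 variant 2 probe, chr4:147977799-147977858: tggatgaatgcagagtgtctctgggagact
Masp2 variant 1 probe, chr4:147989121-147989180: taccctttacaagggcaatttagcaaatca
Masp2 variant 1 probe without a position: gctatattgcatcttcccacataagtcacc

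In the alternative pathway, 1 of 3 tested genes was called higher. C3, the protein on which all pathways meet, was at 11.32, 11.34, 11.29 and 11.45 on the oxaliplatin arrays, against 11.06, 11.04, 11.13 and 10.88 on the control arrays. The groups did not overlap and the gap was narrow. The difference was 0.32 ± 0.09, or 1.25-fold (adjusted p = 0.0453), a call that held under 4 of 21 other settings and was lost when any 1 array was left out (adjusted p between 0.067 and 0.114). A C3 probe that holds a poly(A) signal gave 0.46 ± 0.11 with groups apart. The third probe, on the reverse strand at chr17:57364538-57364695 (mm9), had levels of 7.03, 6.43, 5.65 and 6.08 on the oxaliplatin arrays, against 7.03, 6.74, 7.52 and 7.49 on the control arrays, a difference of -0.90 ± 0.30. It lies upstream of the probe of the reported value, which is at chr17:57343416-57343475. The mean over the C3 probes differed by -0.037, so the direction of C3 depends on the probe.
C3 probe with poly(A) signal: gcccagccctctAATAAAgcttcagttgta
C3 probe at chr17:57364538-57364695: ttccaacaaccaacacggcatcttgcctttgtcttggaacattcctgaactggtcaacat

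Cfb, factor B, the protease of the alternative C3-cutting enzyme, was not called and its probes disagreed likewise. The brightest, with a poly(A) signal, differed by 0.17 ± 0.09 (adjusted p = 0.22) and the other, on the reverse strand at chr17:34993502-34993858 (mm9), by -0.40 ± 0.14. Cfd, factor D or adipsin, was well above background on 1 of 4 oxaliplatin and 1 of 4 control arrays and was not tested. The control array in question had 3.32 on 1 Cfd probe, with every other array below 0. Of 10 adipocyte markers 7 were tested, 0 were called higher and 2 lower, and their summed level was 8.07 to 10.0 on the oxaliplatin arrays and 6.89 to 8.97 on the control arrays. On the oxaliplatin arrays and control array 2 that sum was mostly the level of 1 gene, Car3, named after its values were seen. Car3 was at 7.70, 9.55, 9.80 and 9.91 on the oxaliplatin arrays, against 5.43, 8.66, 5.82 and 1.99 on the control arrays. Car3 was the lesser part of the sum on control arrays 1, 3 and 4. Without a call it differed by 3.77 ± 1.24 (adjusted p = 0.0672), while the median of the list was -0.34, 5 of its 7 differences were below 0, and Pparg and Fabp4 were the genes called lower.
Cfb probe with poly(A) signal: agtgtgaggacagATTAAAgcagttacaat
Cfb probe at chr17:34993502-34993858: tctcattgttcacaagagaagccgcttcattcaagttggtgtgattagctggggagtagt

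Probes of 1 gene were compared for 29 members with more than 1 tested probe. In 24 of them all probes had the same sign, and in 5 (C2, C4b, Masp2, C3 and Cfb) they did not. For the called terminal genes C6, C9, C8a, C8b and Hc every other probe was called higher too, while C3 and C4b had a probe of opposite sign. In C2, C4b, C3 and Cfb, the probe with the most negative difference held no poly(A) signal (AATAAA or ATTAAA) and the probe with the most positive one did. Probes with and without the signal differed between the groups over the whole array as well. In 3980 genes that had both kinds of probe, the median of probes with the signal minus probes without it, centred per gene, was 0.07 ± 0.02 on the oxaliplatin arrays and -0.07 ± 0.04 on the control arrays. The groups were apart by 0.15 (exact permutation test, two-sided p = 0.0286, the smallest this design can give). Its part in the values of C3, C4b, Cfb and C2 was not tested, while C6, C8a and C8b differed as much or more on their probes without the signal.

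**Figure D4:**
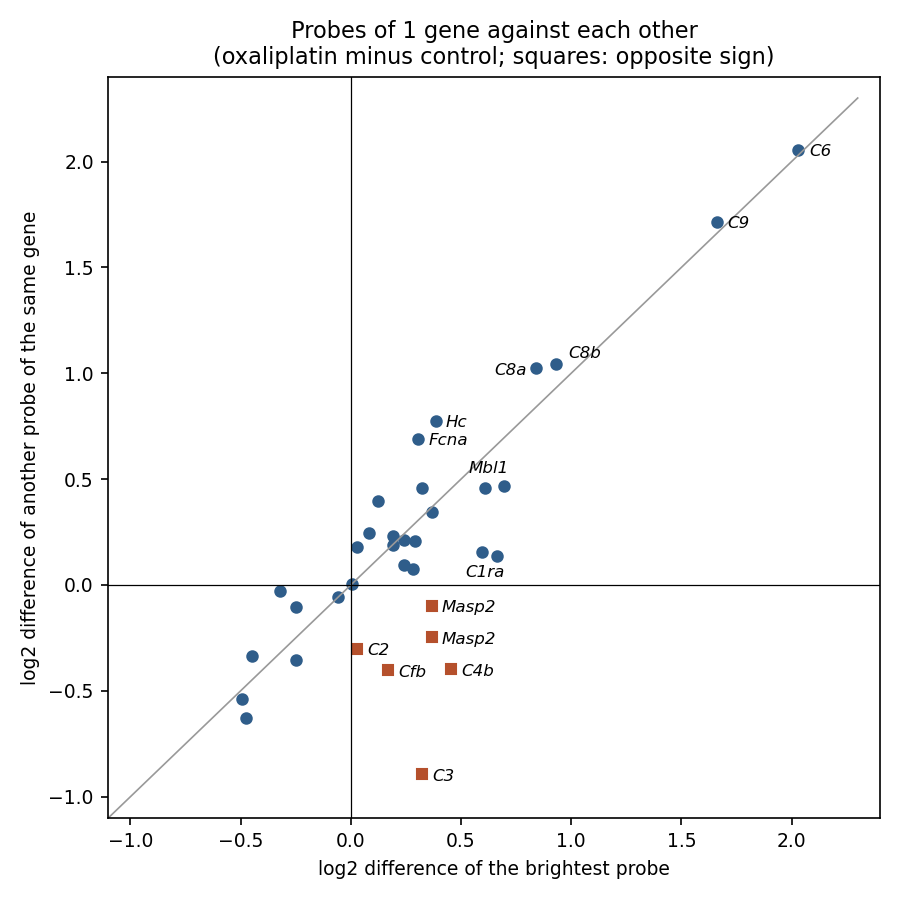
Log2 difference (oxaliplatin minus control) of the brightest probe of each member (horizontal axis) against that of each other tested probe of the same gene (vertical axis), with the line of equal values; squares mark pairs of opposite sign. C6 and C9 lie on the line at 2.03 against 2.06 and 1.66 against 1.71, while C3 has 0.32 against -0.90 and C4b 0.45 against -0.40.

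No regulator was called in either direction among 8. On the lower side were Cd55, a membrane inhibitor of the C3-cutting enzymes, at -0.49 ± 0.23, Serping1, the C1 inhibitor, at -0.48 ± 0.22, and C4bp, which binds C4b in plasma, at -0.32 ± 0.13 (adjusted p = 0.161, 0.151 and 0.122). The second C4bp probe differed by only -0.03 ± 0.14, with overlapping groups. Second probes of Cd55 and Serping1 gave -0.54 ± 0.20 and -0.63 ± 0.27. C4bp was called lower with normexp background correction (-0.50, adjusted p = 0.0169) and quantile normalization (-0.49, adjusted p = 0.0495), and Cd59a with normexp (-0.45, adjusted p = 0.0373). All 8 regulators were called lower when arrays were centred on the median of all probes, a setting that called 69.6% of all genes lower. Serping1 was at 9.16, 8.67, 8.43 and 8.45 on the oxaliplatin arrays, against 8.84, 8.91, 9.54 and 9.34 on the control arrays. Oxaliplatin array 1 lay inside the control range and the other 3 below it. Cd59a, which blocks the joining of C9, differed by -0.25 ± 0.16, and Cfi, the protease that destroys C3b and C4b, by -0.06 ± 0.11.

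On the higher side, Cfhr2 had groups apart without a call. It was at 10.02, 9.94, 9.88 and 9.97 on the oxaliplatin arrays, against 9.70, 9.66, 9.84 and 9.65 on the control arrays, a difference of 0.24 ± 0.09 (adjusted p = 0.0856). All oxaliplatin arrays were above all control arrays, by little over control array 3. Cfhr2 has relatives of similar sequence, and sharing of signal with them was not tested. Vitronectin (Vtn) and clusterin (Clu), which bind the terminal complex in fluid, differed by 0.12 ± 0.09 and 0.01 ± 0.12, and the other Vtn probe was called higher, at 0.39 ± 0.10.

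Neither receptor was called, and C5ar1 was dim. C3ar1, the C3a receptor, was at 1.54, 3.05, 2.13 and 1.82 on the oxaliplatin arrays, against 1.74, 1.57, 1.36 and 1.21 on the control arrays, a difference of 0.66 ± 0.30 (adjusted p = 0.155), and of 0.36 without oxaliplatin array 2. Oxaliplatin array 2 stood above the rest and oxaliplatin array 1 lay inside the control range. A second tested C3ar1 probe, dimmer than the first, gave 0.14 ± 0.36 with overlapping groups. C5ar1, the C5a receptor, was above background on 2 of 4 oxaliplatin arrays and 3 of 4 control arrays and differed by 0.32 ± 0.21.

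Of 40 further genes of the pathway, 38 were on the arrays and 32 were tested, with 2 called higher, 5 lower and 25 not called. Across all genes 6.99% were called higher and 11.6% lower, so these counts were near the shares of all genes. The median difference of the 32 was -0.02. Susd4, a membrane inhibitor of complement, was at 4.99, 5.34, 5.66 and 5.86 on the oxaliplatin arrays, against 3.02, 4.41, 4.04 and 1.91 on the control arrays, a difference of 2.12 ± 0.51 (adjusted p = 0.0266). The groups were apart, and the control arrays were widely spread. Plasminogen (Plg) was higher by 0.32 ± 0.08 (adjusted p = 0.032). The 5 called lower were Cd93, an endothelial and myeloid surface protein first described as a C1q receptor, at -0.99 ± 0.17 (adjusted p = 0.0101), Pros1, encoding the anticoagulant protein S, at -0.71 ± 0.15, Cr1l (Crry), a rodent membrane regulator of C3, at -0.56 ± 0.13, C1qbp at -0.51 ± 0.15 and coagulation factor F12 at -0.34 ± 0.09. Cd93 was the only 1 of these 7 called whichever single array was left out (adjusted p between 0.00923 and 0.0341). Without the 2 arrays of the other run name its adjusted p was 0.0772, and that of Pros1 was 0.0312. Susd4 had adjusted p between 0.055 and 0.0711 without control array 1 or without oxaliplatin array 2, 3 or 4, and Pros1 0.0511 without control array 3 and 0.0507 without oxaliplatin array 4. The highest adjusted p with 1 array left out was 0.0844 for Plg, 0.0727 for Cr1l, 0.12 for C1qbp and 0.0892 for F12, and each of these was lost under at least 4 of the 8 omissions. Well-known genes that were not called were Crp at 0.01 ± 0.12 and Vsig4, the Kupffer cell receptor for C3b, at 0.65 ± 0.22 (adjusted p = 0.0711).

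Counts of other gene lists are given for reference. Of 26 tested genes known to be higher in male mouse liver, 18 were called higher and 0 lower. C6, C8a, C8b and Hc are among these 18, so that count in part repeats the complement calls. Of 23 tested genes known to be higher in female liver, 1 was called higher and 12 lower. Of 30 acute phase genes, which liver injury and inflammation are known to raise, 2 were called higher and 1 lower, with a median difference of -0.29. Of 32 interferon and antigen processing genes, 0 were called in either direction (0 at an unadjusted p under 0.05 in limma). Their median difference was -0.61, with 6 differences above 0 and 26 below. Their summed level was 11.8, 10.8, 10.4 and 10.5 on the oxaliplatin arrays, against 10.4, 10.3, 12.5 and 12.4 on the control arrays. Control arrays 3 and 4 stood above the other control arrays here, as they did for the C1q genes. The part of these lists in the complement values was not tested.

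**Figure D5:**
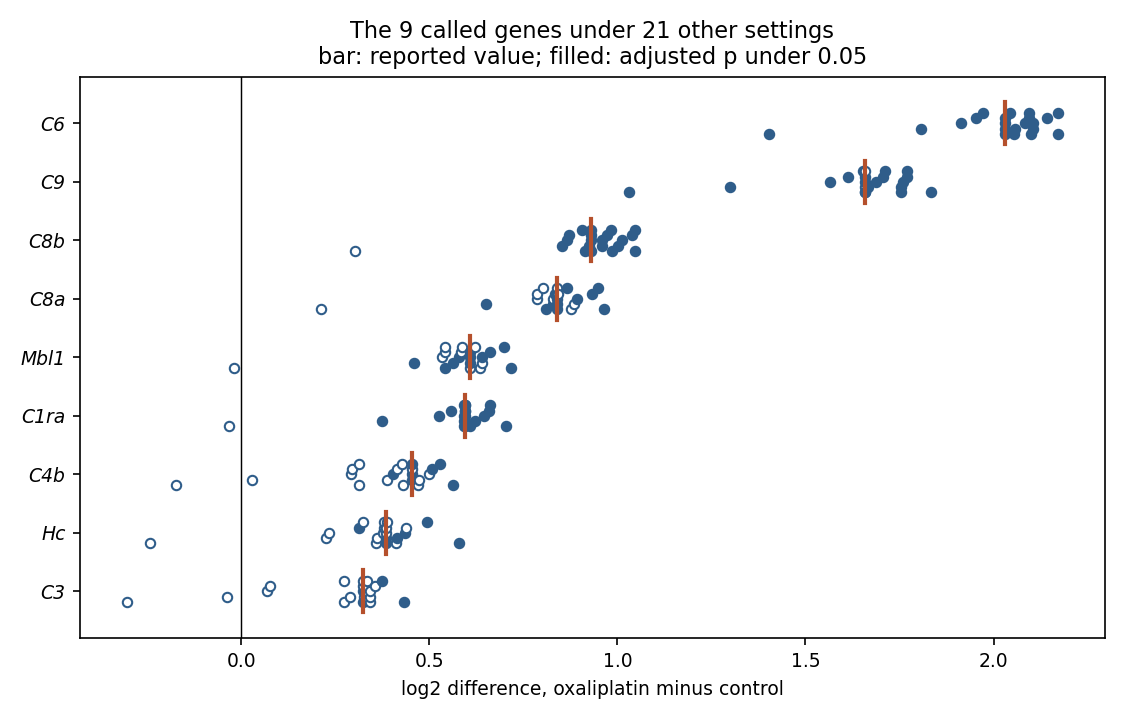
Log2 difference (oxaliplatin minus control, horizontal axis) of the 9 called genes under 21 other settings (points, filled where the adjusted p is under 0.05) and as reported (vertical bars). C6 is filled under all 21, C1ra and C8b under 20 and C3 under 4, and C1ra, C4b, Mbl1, Hc and C3 have a point below 0.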

How the data were processed

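Per the labels, total liver RNA was amplified, labelled with Cy3 and hybridised to 1 Agilent array per mouse (4 oxaliplatin, 4 control). The deposited scanner files give a processed signal, a linear fluorescence intensity that is background-subtracted and detrended and not normalized between arrays, per the file headers (Feature Extraction 12.0.3.1, while the submitters' processing notes name 10.7 and limma). The other intensity columns the authors deposited, mean signal and local background, served an alternative, and the deposited flags of 0 or 1 mark spots above background, saturated or outlying. The series matrix the authors deposited holds log2 values of 46867 probes whose normalization is not stated.

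The log2 processed signal minus each array's 75th percentile over non-control probes was used. Outlier spots were left out, with none among the members. Probes had to be well above background on at least 4 of 8 arrays. Of 48257 probes with a transcript accession, 47985 were named through the RefSeq gene table (GRCm38.p6, for names alone), 121 by the file, and each gene took its brightest probe. The model was fitted in R 4.3.3 with limma 3.58.1 (lmFit, then eBayes; 6 residual and 2.37 prior degrees of freedom), using Benjamini-Hochberg adjustment over all 13906 genes (54636 probes at probe level). For a quantity with 1 value per array, the exact permutation test was two-sided. The median over detected probes and the Masp2 contrast were added after the data were seen. Tested on simulated data for this comparison (200 of 13906 genes changed), the fit recovered 69% of genes changed by 1 on the log2 scale, and 95% of those changed by 2, while 14 of its 178 calls (7.87%) were false. Every member is named, of the further pathway genes those that passed and a few well-known ones that did not, and of the other lists only genes that stand beside a member's result. A gene of the further pathway list is counted but not reported here. Members and lists were chosen with earlier results of these data known. The number of arrays limits the precision. The labels call the samples biological replicates, and p-values set the group difference against the spread between samples within a group. Each slide held 1 group, so that spread does not include differences between slides. Replicate numbers did not pair the samples: deviations of same-numbered arrays correlated at -0.32, -0.08, -0.09 and -0.23 across genes. A slide term could not be fitted. Figures used matplotlib 3.10.9 in Python 3.11.15.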

Additional observations from a re-analysis of the deposited data

Results flagged for a closer look

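Of 76 groups of 4 arrays tested for a single array far from the rest (the 31 tested members and the 7 called further pathway genes, in each group), 3 were picked out by Dixon's test, and chance picks out about 1 in 20. The C9 level on control array 4 was 3.56, with the nearest control array at 4.92. The Mbl2 level on the same array was 9.09, with the nearest at 9.63. The C1qbp level on control array 1 was 7.46, with the nearest at 7.86. With control array 4 left out, the difference was 1.30 for C9 (still called) and 0.14 for Mbl2 (not called either way). With control array 1 left out, C1qbp differed by -0.62 (adjusted p = 0.0281).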

How the results depend on the processing

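The direction of every called member held under all alternatives except centring on the median of all probes, where C1ra was at -0.033, C3 at -0.30, C4b at -0.17, Hc at -0.24 and Mbl1 at -0.019, and, for C3, the mean over probes of a gene (-0.037). Plg (-0.30) turned under that centring too, as did the uncalled C2 (-0.60), Cfb (-0.46), Cfhr2 (-0.39), Clu (-0.62) and Vtn (-0.50), which were then called lower; it shifted the median of all genes by -0.63, the percentile over detected probes by 0.11, and dropping the filter on dim probes by 0.18. Members called higher numbered 9 as reported, 2 under that centring, 3 with a replicate block, with the run name as covariate or without the 2 arrays of the other run name, and 4 to 7 with 1 array left out. Members called lower numbered 0 as reported, 12 under that centring, 2 with normexp and 1 with quantile normalization. Across all genes the share called lower was 11.6% as reported, 69.6% under that centring, 18.6% with normexp and 8.08% with quantile normalization. Further pathway genes called higher numbered 2 as reported, 1 with the mean over probes, that centring, quantile normalization or the series matrix, 4 without the filter, 0 with the replicate block, the run covariate or the 2 arrays omitted, and 0 to 2 with 1 array left out. Those called lower numbered 5 as reported, 3 with the mean over probes, the percentile over detected probes or no filter, 22 under that centring, 9 with normexp, 1 with the replicate block, 2 with the run covariate or the 2 arrays omitted, and 1 to 5 with 1 array left out. Causes of these moves were not tested. Of all called genes 37.6% were higher as reported, 20.8% with normexp, 50% with quantile normalization, 2.32% under that centring, 60.5% with the percentile over detected probes, 49.3% in the series matrix, 67.6% without the filter and 47.7% with the median over detected probes. The replicate block rests on numbers that did not pair the samples. The Masp2 contrast was 0.42 to 0.60 with 1 array left out. The dim members Cfd and C5ar1 are limited by signal over background.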
